A study of Mus musculus with 4 samples.

Results

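The genes described here encode glutathione transferases, peroxidases, superoxide dismutases and the thioredoxin and glutaredoxin systems, with the transcription factor NRF2 (gene Nfe2l2) and its inhibitor KEAP1. They were taken from the deposited read count table by symbol, as the numbered members of the Gst, Mgst, Gpx, Prdx, Sod and Txnrd families with Txn1, Txn2, Glrx, Srxn1, Gsr, Hmox1, Nqo1, Nfe2l2 and Keap1: 54 protein-coding genes out of 55812 features, of which 48 had enough reads to be tested. The cells were primary mouse Leydig cells, the androgen-making cells of the testis interstitium, from animals labelled as 6 months old. They received Negative siRNA (2 samples, the controls) or Trps1 siRNA (2 samples), where Trps1 encodes a GATA-type repressor of transcription. The sources used here do not give strain, siRNA sequence, dose, time after transfection or number of animals. The labels do not say whether replicates are separate cultures, so the p-values speak for the spread of these 4 libraries, possibly a technical one.

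Glutathione transferases join the tripeptide glutathione to reactive or foreign molecules, and several also carry steroids, bile pigments or oxidised lipids. Superoxide dismutases turn superoxide into hydrogen peroxide, which glutathione peroxidases, peroxiredoxins and catalase remove. Peroxiredoxins are recharged by thioredoxin and, when over-oxidised, by sulfiredoxin, and reductases draw on NADPH to keep thioredoxin and glutathione reduced. NRF2 is held in the cytoplasm and degraded through KEAP1, and upon oxidative stress it enters the nucleus and raises many of these genes. Steroidogenic cells leak electrons from their mitochondrial cytochromes P450, and Leydig cells are known for high levels of glutathione transferases.

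The libraries held 17844125 to 25852898 counted reads. In CPM, the read counts scaled to library size, Trps1 itself had 38.0 and 42.2 CPM in the controls and 23.5 and 30.1 CPM with Trps1 siRNA, 0.671 of the control (edgeR adjusted p = 0.000351). Leydig markers were present, with Cyp11a1 at 2409 to 3652 CPM, and 6 of 8 of them were higher with Trps1 siRNA. The 8 Leydig markers summed to 4050.7 and 4333.5 CPM in the control samples and 6029.5 and 6471.3 CPM with Trps1 siRNA. Over all genes tested, 5.24% were called higher and 6.00% lower at an edgeR adjusted p under 0.05. Macrophage markers were also present, none at 0. Of 18 of them 10 were lower, and their summed level was 3515.5 and 3471.3 CPM in the control samples and 2979.4 and 2370.5 CPM in the Trps1 siRNA samples. Smooth muscle markers, of which 2 of 4 tested were lower, summed to 93.983 and 94.997 CPM in controls and 58.923 and 62.697 CPM with Trps1 siRNA. The endothelial, Sertoli, germ cell and erythroid lists summed to less in every sample. The germ cell list was mostly Zbtb16, which rose from 34.1 and 31.5 to 35.6 and 46.1 CPM (edgeR adjusted p = 0.0423), a call lost with DESeq2 and with limma voom. Dazl had 0.742 to 1.79 CPM, Tnp1 was at 0 and the other 5 genes had too few reads to be tested. Of the Sertoli list Gata1 rose from 15.6 and 17.3 to 21.9 and 21.8 CPM (edgeR adjusted p = 0.0154), a call lost with DESeq2. Cldn11 and Sox9 were not called by edgeR, and Fshr was at 0. None of the 8 endothelial markers was called by edgeR, DESeq2 or limma voom, with 1 at an unadjusted p under 0.05.

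Of the 48 tested genes, 2 rose and 4 fell with Trps1 siRNA, and 42 did not pass the test. Those that rose were Srxn1, which encodes sulfiredoxin, and Gsr, which encodes glutathione reductase. Those that fell were Glrx (glutaredoxin), the transferases Gstt1 and Gsta3, and the peroxiredoxin Prdx5. A change was called at a Benjamini-Hochberg adjusted p under 0.05 in edgeR's quasi-likelihood test over all 14701 genes tested. By that rule 12.5% of these genes were called, against 11.2% of all genes tested, with 5.24% of all genes called higher and 6.00% called lower. The share was thus near the background, and none of the 48 changed by 2-fold. Their median log2 fold change was 0.01, beside 0.002 for all genes tested, and the values ran from -0.56 to 0.48.

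**Figure D1:**
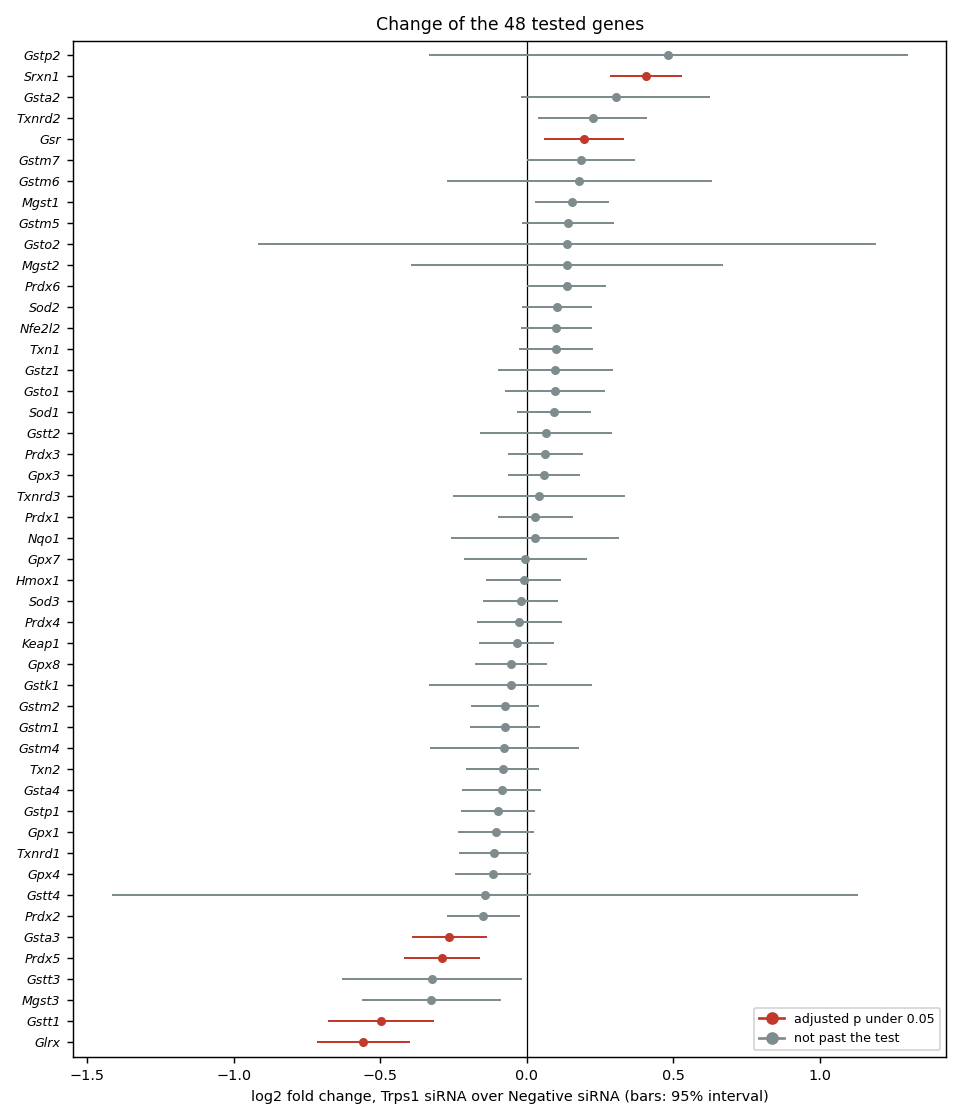
Each row is 1 of the 48 tested genes, with its log2 fold change (Trps1 siRNA over Negative siRNA) as a point on the x axis and its 95% interval as a bar. Red marks the 6 genes past the test, from Glrx at -0.56 to Srxn1 at 0.41. Wide bars belong to genes with few reads, such as Gstt4, Gsto2 and Gstp2.

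The control and Trps1 siRNA samples did not overlap in 32 of the 48 genes (66.7%), against 52.2% of all genes tested. Of the 42 genes not called, 22 had a positive and 20 a negative log2 fold change. For 34 of these 42 the 95% interval of the log2 fold change lay between -0.5 and 0.5. Of the 42, 7 had an unadjusted p under 0.05. The nearest to the threshold was Mgst3, a microsomal transferase, at 19.4 and 22.2 CPM in controls and 17.2 and 16.2 CPM with Trps1 siRNA (log2 fold change -0.33 ± 0.11, standard error, edgeR adjusted p = 0.0642).

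**Figure D2:**
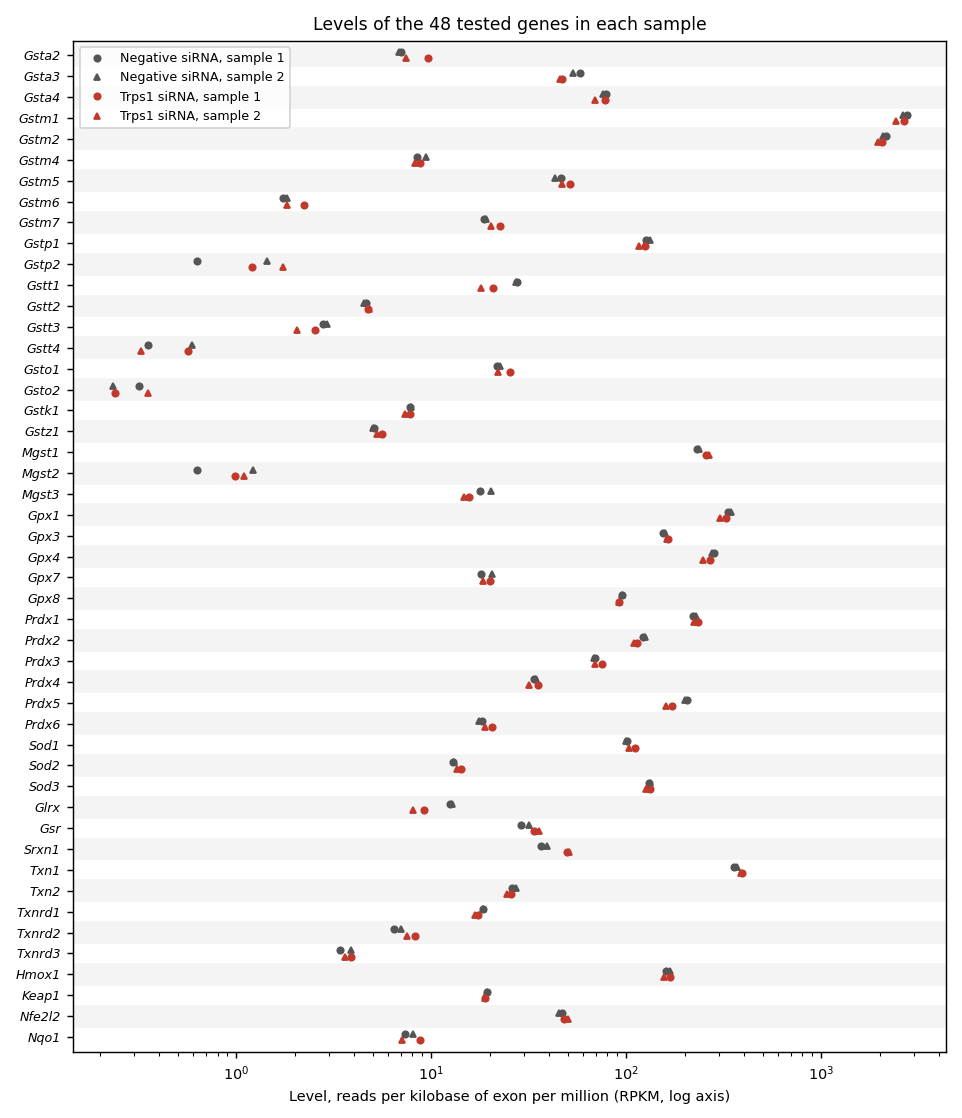
Levels of the 48 tested genes in each of the 4 samples, as CPM per kilobase of exon (log axis), grouped by class. Grey symbols are Negative siRNA and red symbols Trps1 siRNA samples. Gstm1 and Gstm2 stand far to the right of all others, and for most genes the 4 symbols lie close together.

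Compared per length, as CPM per kilobase of exon (RPKM), the mu-class transferases Gstm1 and Gstm2 led, with mean levels of 2616 and 2058 RPKM. They ranked 3 and 6 among the 21897 protein-coding genes of the table. Next came Txn1 (thioredoxin, 376 RPKM), Gpx1 (326 RPKM), Gpx4 (268 RPKM), Mgst1 (247 RPKM), Prdx1 (226 RPKM), Prdx5 (184 RPKM) and Hmox1 (163 RPKM). These lengths count every annotated exon, and genes with many alternative ends then appear lower. With the length of the principal transcript alone, Sod1 moved from place 14 to place 3 and Gstm2 stood before Gstm1. At the other end, Gpx2, Gpx5 and Gpx6 had no read in any library, where 3 reads would have been 0.117 to 0.168 CPM, and Gsta1, Gstm3 and Gstp3 had 0 to 5 reads per library. These 6 genes were not tested. Because Gsta1 shares 89.7% of its 50-base windows with other genes, its near absence is uncertain.

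Gstm1 had 4044 and 3860 CPM in the control samples and 3929 and 3579 CPM in the Trps1 siRNA samples, and the groups overlapped. Its log2 fold change was -0.07, with a 95% interval from -0.19 to 0.04 (edgeR adjusted p = 0.471). Gstm2 had 3614 and 3473 CPM in controls and 3457 and 3276 CPM with Trps1 siRNA, a change of the same size without overlap (adjusted p = 0.454). Together these 2 genes made up 0.690% to 0.766% of all counted reads, and all 54 genes 1.37% to 1.45%. The other mu-class genes were far less abundant. Gstm5 (54.8 to 66.0 CPM) and Gstm7 (29.7 to 36.0 CPM) had log2 fold changes of 0.14 and 0.18, Gstm4 and Gstm6 of -0.08 and 0.18. None of the 6 tested mu-class genes was called by edgeR, DESeq2 or limma voom, with 1 at an unadjusted p under 0.05. Reads of this family may be split or lost between copies: 23.1% of the 50-base windows of the Gstm1 transcript occur in other genes, mainly the pseudogene Gstm2-ps1 and Gstm3.

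In the alpha class, whose members are known for binding and isomerising steroids as well as conjugating lipid peroxidation products, Gsta3 (chr1:21240589-21265661, plus strand, GRCm38) fell. It had 251 and 232 CPM in the control samples and 204 and 198 CPM in the Trps1 siRNA samples, both below both controls. The log2 fold change was -0.26 ± 0.06 (standard error), or 0.833 of the control with a 95% interval from 0.764 to 0.907 (edgeR adjusted p = 0.00386). Without sample 1 of Negative siRNA the call was lost (log2 fold change -0.21, adjusted p = 0.108). Gsta4, which acts on lipid aldehydes, had 96.7 to 100.1 CPM in controls and 87.4 to 98.1 CPM with Trps1 siRNA, which overlapped. Gsta2 was low at 8.001 to 11.4 CPM and shares 64.2% of its windows with other genes.

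Theta-class transferases act on small halogenated molecules and on peroxides. Gstt1 (chr10:75783813-75798584, minus strand), the class member with the most reads, had 41.9 and 41.7 CPM in the control samples and 31.8 and 27.6 CPM in the Trps1 siRNA samples. It fell to 0.708 of the control, with an interval from 0.626 to 0.801 (log2 fold change -0.50 ± 0.09, edgeR adjusted p = 0.000257). Its neighbours on chromosome 10 did not pass the test: Gstt2 had a log2 fold change of 0.07 and Gstt3 of -0.32 (adjusted p = 0.777 and 0.177). Gstt3 shares 524 exon bases with Gm20441 on the same strand, so its count is uncertain, and Gstt4 had 7 to 15 reads per library.

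Among the remaining transferases none was called by any of the 3 tools. Mgst1, a membrane-bound transferase and peroxidase of the endoplasmic reticulum and mitochondria, had 465 and 477 CPM in controls and 514 and 533 CPM with Trps1 siRNA. The groups did not overlap, and the log2 fold change of 0.15 (interval 0.03 to 0.28) had an adjusted p of 0.103 in edgeR. Gstp1, the pi-class enzyme, had 195 and 205 CPM in controls and 194 and 180 CPM with Trps1 siRNA (adjusted p = 0.336), and it shares 62.3% of its windows with Gstp2 and a pseudogene. Gsto1, Gstk1 and Gstz1 had log2 fold changes of 0.10, -0.05 and 0.10. Over all 22 tested transferases, 2 fell and none rose, with a median log2 fold change of 0.006.

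Glutathione peroxidases that carry selenocysteine reduce hydrogen peroxide (Gpx1, Gpx3) or lipid peroxides within membranes (Gpx4). Gpx1 had 476 and 496 CPM in controls and 468 and 436 CPM with Trps1 siRNA, a log2 fold change of -0.11 with an interval from -0.23 to 0.02 (edgeR adjusted p = 0.311). Gpx4 had 486 and 477 CPM in controls and 463 and 426 CPM with Trps1 siRNA, a log2 fold change of -0.11 (adjusted p = 0.263), and 68.9% of its windows also occur in other genes, among them a pseudogene. The Trps1 siRNA samples lay slightly below the controls in both. Gpx3, the secreted form, lay at 280 to 297 CPM in all samples, and the endoplasmic reticulum members Gpx7 and Gpx8 at 23.3 to 26.3 and 95.9 to 100.1 CPM. None of the 5 tested peroxidases was called by edgeR, DESeq2 or limma voom, and none had an unadjusted p under 0.05. By the annotation, 7 of the 54 genes encode selenocysteine (Gpx1 to Gpx4 and Txnrd1 to Txnrd3), and none of the 6 tested was called by any of these tools, with 1 at an unadjusted p under 0.05.

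Of the 6 peroxiredoxins, thiol peroxidases of the cytosol, mitochondria, peroxisomes and endoplasmic reticulum, only Prdx5 (chr19:6906697-6910106, minus strand) was called. It had 438 and 429 CPM in the control samples and 369 and 340 CPM in the Trps1 siRNA samples. It fell to 0.818 of the control, with an interval from 0.750 to 0.893 (log2 fold change -0.29 ± 0.06, edgeR adjusted p = 0.00197). Prdx5 shares 409 exon bases, 19.1% of its exon length, with Trmt112 on the opposite strand, and Trmt112 fell as well, from 49.6 and 54.1 to 42.5 and 43.8 CPM (edgeR adjusted p = 0.0239). The sources used here do not say whether counting used strand, so reads of the shared bases cannot be assigned. Prdx1, the family member with the most reads, had 668 and 692 CPM in controls and 711 and 678 CPM with Trps1 siRNA, with overlap. Prdx2 lay at 374 and 381 CPM in controls and 346 and 335 CPM with Trps1 siRNA (log2 fold change -0.15, adjusted p = 0.114). Mitochondrial Prdx3, secretory Prdx4 and Prdx6, which also acts on phospholipids, had log2 fold changes of 0.06, -0.03 and 0.14.

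None of the 3 superoxide dismutases was called by edgeR, DESeq2 or limma voom, and none had an unadjusted p under 0.05. Cytosolic Sod1 had 400 and 397 CPM in controls and 439 and 412 CPM with Trps1 siRNA. Mitochondrial Sod2 had 129 and 131 CPM in controls and 143 and 136 CPM with Trps1 siRNA. For both, the Trps1 siRNA samples lay above the controls by a log2 fold change of 0.09 and 0.10. Extracellular Sod3 lay between 470 and 497 CPM, with overlap.

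The thioredoxin and glutaredoxin systems held 3 of the 6 called genes, in both directions, among 8 tested. Srxn1 (chr2:152105516-152111376, plus strand), whose protein reduces over-oxidised peroxiredoxins, had 103 and 110 CPM in the control samples and 139 and 143 CPM in the Trps1 siRNA samples. It rose 1.33-fold, with an interval from 1.22 to 1.44 (log2 fold change 0.41 ± 0.06, edgeR adjusted p = 2.01e-05). Glrx (chr13:75839868-75850154, plus strand), the cytosolic glutaredoxin that removes glutathione from protein thiols, had 68.7 and 69.9 CPM in controls and 50.1 and 44.3 CPM with Trps1 siRNA. It fell to 0.680 of the control, with an interval from 0.611 to 0.756 (log2 fold change -0.56 ± 0.08, adjusted p = 1.00e-05). In both genes the gap between the groups was several times the spread within them.

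Gsr (chr8:33652523-33698163, plus strand), the NADPH-dependent enzyme that recycles oxidised glutathione, had 79.4 and 87.4 CPM in controls and 93.1 and 98.0 CPM with Trps1 siRNA. It rose by a log2 fold change of 0.20 ± 0.06, with an interval from 0.06 to 0.33, at an edgeR adjusted p of 0.0491 next to the threshold. That call was lost without sample 1 of Negative siRNA (adjusted p = 0.464) or sample 2 of Trps1 siRNA (adjusted p = 0.328), and with DESeq2 (adjusted p = 0.176). Thioredoxin itself, Txn1, had 374 and 389 CPM in controls and 412 and 407 CPM with Trps1 siRNA (log2 fold change 0.10, edgeR adjusted p = 0.320). Mitochondrial Txn2 lay between 103 and 114 CPM. Of the thioredoxin reductases, cytosolic Txnrd1 and mitochondrial Txnrd2 had log2 fold changes of -0.11 and 0.23, each without overlap (edgeR adjusted p = 0.230 and 0.108), and Txnrd3 one of 0.04.

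**Figure D3:**
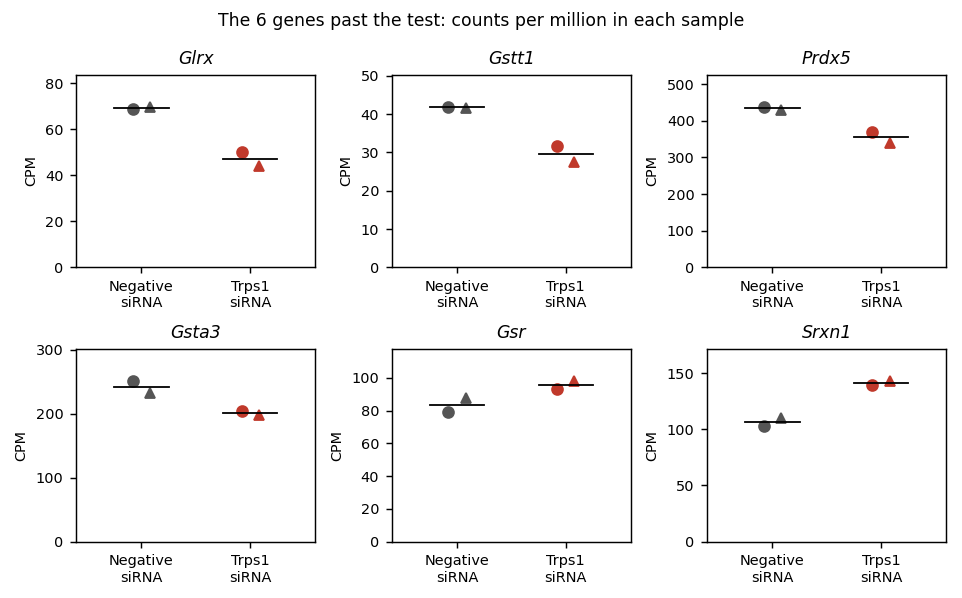
CPM in each sample (y axis, from 0) for the 6 genes past the test; circles are sample 1, triangles sample 2 and lines the group means. In each panel both Trps1 siRNA samples lie on the same side of both controls, with the widest relative gap for Glrx and the narrowest for Gsr, where 87.4 CPM in a control faces 93.1 CPM.

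The authors' deposited table of 780 genes lists 5 of the 54, namely Glrx, Gstt1, Prdx5, Gsta3 and Srxn1. In the authors' deposited table their log2 fold changes are -0.56, -0.50, -0.29, -0.27 and 0.41. Gsr is not among them.

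Nfe2l2 had 178 and 171 CPM in the control samples and 183 and 191 CPM in the Trps1 siRNA samples. The groups did not overlap, and the log2 fold change of 0.10 (interval -0.02 to 0.22) was not called (edgeR adjusted p = 0.297). Keap1 had 91.1 and 90.4 CPM in controls and 89.0 and 88.3 CPM with Trps1 siRNA (log2 fold change -0.03, adjusted p = 0.798). Hmox1, the heme oxygenase that NRF2 is known to raise strongly, had 278 and 293 CPM in controls and 293 and 274 CPM with Trps1 siRNA. Nqo1, a quinone reductase and classic NRF2 target, was low at 10.9 to 13.5 CPM. The interval of the log2 fold change ran from -0.13 to 0.11 for Hmox1 and from -0.26 to 0.31 for Nqo1. None of these 4 genes was called by edgeR, DESeq2 or limma voom, nor had an unadjusted p under 0.05.

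The start regions of the genes were searched for the core of the antioxidant response element, to which NRF2 binds with small MAF proteins, spelled TGACNNNGC on either strand. The windows run from 250 bases before to 50 bases after each annotated start (RefSeq, GRCm38.p6), and 48 of the 54 genes had one. The motif was found in 9 of these 48 genes (18.8%), against 14.0% of all 27025 genes with a window. Of the 9, Srxn1 rose, Gsta3 fell, and Gstm5, Gstm7, Mgst1, Nfe2l2, Prdx1, Sod1 and Txnrd1 did not pass the test. The related site TGAGTCA, bound by AP-1 factors and found within many such elements, was in 7 of the 48 (14.6%), against 5.95% of all genes with a window, and in Prdx1 the 2 motifs overlap. It occurs in Srxn1 and Glrx, which moved in opposite directions, and in Gstm5, Gstp1, Gstp2, Mgst2 and Prdx1, which were not called. A motif match is a description of the letters and does not show binding. A gene without a match may still hold an element outside its window or in a variant spelling.

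The start regions of the gene that rose most, the gene that fell most and the transferase Gsta3 are printed here 5′ to 3′, because they hold these motifs although their expression moved in different directions. Capitals mark TGACNNNGC or TGAGTCA on either strand. In Srxn1 (chr2:152105274-152105573, plus strand) the AP-1 sites begin 102 and 45 bases before the start. The response element core found by the search, read on the opposite strand, begins 28 bases after the start. At 45 bases before the start the letters read on as TGAGTCAGC. That departs from TGACNNNGC only in G for C, so the strict search did not count it as a core. In Glrx (chr13:75839635-75839934, plus strand) the single AP-1 site, on the opposite strand, begins 98 bases before the start. In Gsta3 (chr1:21240335-21240634, plus strand) the response element core begins 121 bases before the start.
Srxn1: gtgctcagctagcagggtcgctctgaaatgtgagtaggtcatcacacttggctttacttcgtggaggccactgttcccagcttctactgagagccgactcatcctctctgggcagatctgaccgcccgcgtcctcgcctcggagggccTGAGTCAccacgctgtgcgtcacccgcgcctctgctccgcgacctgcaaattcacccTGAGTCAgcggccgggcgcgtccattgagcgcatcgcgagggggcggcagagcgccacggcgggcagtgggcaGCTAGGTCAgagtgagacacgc
Glrx: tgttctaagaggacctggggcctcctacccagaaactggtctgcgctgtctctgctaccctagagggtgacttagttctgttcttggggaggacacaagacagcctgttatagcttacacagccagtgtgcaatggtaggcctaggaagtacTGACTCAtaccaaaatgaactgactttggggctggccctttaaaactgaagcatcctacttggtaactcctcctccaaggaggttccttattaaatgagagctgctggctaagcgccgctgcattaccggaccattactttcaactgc
Gsta3: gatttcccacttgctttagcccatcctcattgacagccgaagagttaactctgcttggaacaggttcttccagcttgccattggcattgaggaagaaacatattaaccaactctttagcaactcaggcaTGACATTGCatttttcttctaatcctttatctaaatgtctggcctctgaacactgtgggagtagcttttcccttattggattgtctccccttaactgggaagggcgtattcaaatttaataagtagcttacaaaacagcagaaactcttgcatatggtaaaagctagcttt

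GATA sites, the class that TRPS1 is known to recognise, were searched on either strand as AGATAA or as AGATAG or as TGATAA or as TGATAG. In all, 14 of the 48 genes (29.2%) had a match, against 33.0% of all genes with a window. Of the 5 called genes with a window, Gsta3 had one. Gsr, Gsta4, Gstt2, Prdx6, Sod3 and Hmox1 had no window in any of these searches.

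The genes that feed these enzymes were taken from lists of the wider pathway. Over all genes tested, edgeR called 11.2%, with 5.24% higher and 6.00% lower. It called 20% in glutathione synthesis and turnover, 23.1% of other NRF2 targets and 9.09% of NRF2 partners and regulators. The share was 7.69% for NADPH supply, 18.2% for other redox enzymes, 60% for superoxide and peroxide producers and 20% for selenoprotein synthesis. These lists hold 10 to 26 tested genes each. In glutathione synthesis and turnover, 3 of 15 tested genes were called by edgeR, 2 of them higher and 1 lower, and 1, Ggct, by DESeq2. Ggct, which releases oxoproline during glutathione breakdown, rose 1.32-fold from 38.3 and 41.8 to 53.6 and 52.3 CPM (log2 fold change 0.40 ± 0.08, edgeR adjusted p = 0.000889). Slc7a11, the cystine importer, rose 1.27-fold (adjusted p = 0.0379), a call lost with DESeq2 (adjusted p = 0.134) and with any 1 sample left out (adjusted p from 0.0592 to 0.218). Chac1, which degrades glutathione, fell to 0.650 of the control at 5.70 to 9.84 CPM (adjusted p = 0.0105). DESeq2 gave it an adjusted p of 0.0612, and edgeR without control sample 2 or Trps1 siRNA sample 2 gave 0.0806 and 0.144. Its paralogue Chac2 had a log2 fold change of 0.39 that missed the threshold (adjusted p = 0.0621). The rate-limiting ligase subunits Gclc and Gclm had log2 fold changes of 0.10 and 0.09, neither past the test.

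Of 26 tested further genes known as NRF2 targets, a list that shares members with the other lists, 4 rose and 2 fell. Taldo1, an enzyme of the pentose phosphate pathway, rose 1.47-fold from 207 and 202 to 301 and 299 CPM (log2 fold change 0.55 ± 0.06, edgeR adjusted p = 2.50e-07). Ephx1, an epoxide hydrolase, rose 1.17-fold, and Slc7a11 and Osgin1 were the others that rose. The calls of Ephx1 (adjusted p = 0.171 without sample 1 of Negative siRNA) and Osgin1 (0.0519 to 0.258 with any 1 sample left out) were lost. Fth1, the heavy chain of the iron store ferritin, fell to 0.818 and Idh1, a cytosolic source of NADPH, to 0.852 of the control, a call lost without either control (0.0811 and 0.0784). Among 11 tested partners and regulators of NRF2, Nfe2l1, a related factor, rose 1.24-fold (adjusted p = 0.00158, but 0.0885 without sample 2 of Negative siRNA), while Sqstm1, which sequesters KEAP1, had a log2 fold change of 0.17 and an adjusted p of 0.0609 (0.0325 with DESeq2 and 0.0395 with limma voom). Idh1 was the only gene of 13 called in the NADPH list. For 1 of these 13, Nnt, the count cannot be read, since a second gene model of that name covers it on the same strand.

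Of 22 tested other redox enzymes, 2 rose and 2 fell. Catalase, Cat, which removes hydrogen peroxide in peroxisomes, rose 1.16-fold from 184 and 181 to 213 and 212 CPM (edgeR adjusted p = 0.0114), and Msrb3, which repairs oxidised methionine, 1.18-fold. The metallothionein Mt1, which binds metals and radicals, fell from 1634 and 1763 to 1298 and 1259 CPM, or 0.753 of the control (adjusted p = 2.83e-05), and the thioredoxin-like Nxn fell to 0.809. Calls were lost for Cat without either control (adjusted p = 0.0698 and 0.129), for Msrb3 without control sample 1 or Trps1 siRNA sample 2 (0.0850 and 0.0591), and for Nxn with DESeq2 (0.0598) and when control sample 2 or Trps1 siRNA sample 2 was dropped (0.0985 and 0.0582).

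Enzymes that make superoxide or hydrogen peroxide fell in 6 of 10 tested genes, against 6.00% of all genes tested called lower, and none rose. Of the phagocyte oxidase, Cybb, its catalytic subunit, fell from 83.3 and 93.6 to 65.8 and 61.6 CPM, and Cyba, its membrane partner, from 104.8 and 117.8 to 83.8 and 70.8 CPM (edgeR adjusted p = 3.01e-05 and 6.40e-05). Ncf4 and Rac2, its cytosolic subunits, fell to 0.683 and 0.728 of the control, the call of Ncf4 being lost without sample 2 of Trps1 siRNA (adjusted p = 0.0538). Outside the oxidase, Maob, a mitochondrial monoamine oxidase, fell to 0.739 and Xdh, xanthine dehydrogenase, to 0.817. Over the same samples the 18 macrophage markers summed to 3515.5, 3471.3, 2979.4 and 2370.5 CPM (controls first), and their part in these falls, and in those of Glrx, Gstt1, Prdx5 and Gsta3, was not tested. In bulk RNA, fewer cells of a type and less RNA per cell cannot be told apart.

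**Figure D4:**
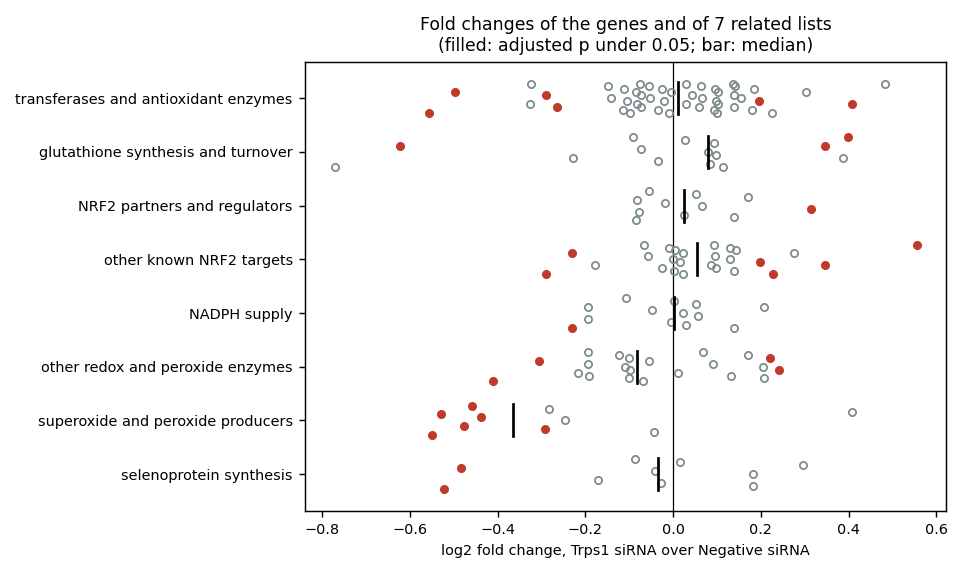
Each point is the log2 fold change of 1 tested gene (x axis, Trps1 siRNA over Negative siRNA), in rows for the 48 tested transferases and antioxidant enzymes and for 7 related lists; some genes are in more than 1 list. Filled points passed the test and bars are medians. The row of superoxide and peroxide producers has its median at -0.36, and the other medians lie between -0.08 and 0.08.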

How the data were processed

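Raw counts of reads per gene in the 4 samples were deposited by the authors. According to the submitters' processing notes the tools were HISAT2 and featureCounts, with GRCm38 (mm10); the sources used here do not give their versions, the strand setting or the handling of multiply matching reads. A second deposited table holds the authors' own comparison of 780 genes: normalised signal per group, log2 fold changes and p-values, per the file headers.

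GENCODE M21 (GRCm38) gave symbols to 55141 of 55812 features. The name rule found 55, and 1 that was not protein coding was left out. The groups were compared with edgeR 4.0.16 (R 4.3.3): TMM scaling, filterByExpr with a minimum count of 10, robust glmQLFit and glmQLFTest with the group as the only term and 2 residual degrees of freedom, coded as Trps1 siRNA minus Negative siRNA. Standard errors are the absolute log2 change over the root of F, and 95% intervals use the test's degrees of freedom. CPM are counts over TMM-scaled totals, and RPKM divide them by exon length. Shared windows are exact 50-base matches of the principal transcript in other genes' transcripts. The fit was also run on simulated counts with the same dispersion for every gene. Real genes differ in dispersion, so that run does not speak for the calls given here. With 17844125 to 25852898 reads per library, both replicate pairs differed by more than sampling noise (mean chi-square per gene 7.59 and 4.57).

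Alternatives were RLE factors, plain totals, no filter, a 5 CPM filter on the mean, DESeq2 1.42.0, voom in limma 3.58.1, non-robust estimation, a block for the replicate number and each sample left out. Members and lists were chosen with earlier results of these data known. The rule for named genes took every called member, Nfe2l2, Keap1, the 8 other members with the highest RPKM and up to 4 genes of each list with the smallest p. Other members and list genes named, the principal transcript lengths and the TGAGTCA and GATA searches were added after values were seen.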

Additional observations from a re-analysis of the deposited data

How the results depend on the processing

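The count of genes that rose, 2, became 1 with DESeq2, with limma voom and without robust estimation, because Gsr fell out (adjusted p = 0.176, 0.0760 and 0.0678), and it was 1 to 2 with a sample left out. The count that fell was 4 to 5 throughout. Glrx, Gstt1, Prdx5 and Srxn1 were called in all 12 alternatives, and no called gene changed sign. Mgst3 was called lower with a mean of at least 5 CPM, with the block and without sample 1 of Negative siRNA (adjusted p = 0.0475, 0.0429 and 0.0337), and Gstm1 without sample 1 of Trps1 siRNA (log2 fold change -0.14, adjusted p = 0.0420). The median log2 fold change of the tested members was -0.046 to 0.054 with a sample left out. Over all genes, 1652 were called, 991 with DESeq2 and 871 to 1675 when single samples were dropped, the lowest count being that without sample 2 of Trps1 siRNA. Of the 42 members not called, 13 changed sign in some alternative. With the replicate number as a block, 2 members were called higher and 5 lower, and 2285 of all genes were called. Deviations of same-numbered samples from their group means correlated at 0.017 across genes. With 2 samples per group this value cannot decide whether same-numbered samples share a culture, an animal or a batch. Genes with under about 20 reads per library, such as Gstt4 and Gsto2, are limited by depth. Of the 21 genes called in the related lists, 10 were called in all 12 alternatives and 11 were lost in at least 1.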

Other observations

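Genes that make and recycle selenium compounds for the selenocysteine enzymes were listed separately. Of 10 tested, 2 fell, against 6.00% of all genes tested called lower, and none rose. Sephs2, which makes the selenium donor, had 31.4 and 30.5 CPM in the control samples and 23.1 and 21.3 CPM in the Trps1 siRNA samples, or 0.715 of the control (edgeR adjusted p = 0.000901). Scly, which frees selenium from selenocysteine, had 19.0 and 16.2 CPM in controls and 13.4 and 11.1 CPM with Trps1 siRNA, or 0.696 of the control (adjusted p = 0.00809). The call of Scly was lost without control sample 1 or Trps1 siRNA sample 2 (adjusted p = 0.0806 and 0.167). Sephs2 overlaps Gm44729 and Scly overlaps Gm17090, each on the opposite strand. The secreted selenium carrier Selenop lay between 2410 and 2642 CPM and was not called.

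Mt1 had 1259 to 1763 CPM, whereas Mt2, its neighbour on chromosome 8, had 2 to 11 reads per library. Mt2 shares exon sequence with Gm45774 on the opposite strand, and the part of that overlap in its low count was not tested.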
